A study of Mus musculus with 6 samples.

Results

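YAP and its relative TAZ are transcriptional coactivators that enter the nucleus when Hippo signalling is low and bind DNA through the TEAD factors. The Hippo kinases MST1 and MST2 act through LATS1 and LATS2, which phosphorylate YAP and TAZ and keep them out of the nucleus. Cell stretch, a stiff matrix and actin tension favour YAP activity, and in the embryonic heart YAP and TEAD1 are known for their part in cardiomyocyte proliferation. The 10 genes described here are 3 secreted matricellular targets (*Ctgf*, *Cyr61*, *Thbs1*), 2 further targets (*Ankrd1*, *Axl*), 2 targets whose products act back on the pathway (*Amotl2*, *Lats2*), and the genes of YAP (*Yap1*), TAZ (*Wwtr1*) and TEAD1 (*Tead1*). They were found by symbol among the 13809 genes of the count table, which uses the older names *Ctgf* for *Ccn2* and *Cyr61* for *Ccn1*. All 10 passed the filter on low counts, with 555 to 27948 counts in a library. They were selected on the KO to WT differences in CPM of these same libraries, known from earlier work on the table, and on their place in the pathway. That contrast is therefore given for them as a description, without a test.

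The libraries came from E18.5 mouse hearts, which the study describes as ventricular tissue, with 3 biological replicates from wildtype (WT) embryos and 3 from *pkm1*-knockout (KO) embryos. KO embryos carried a Cas9-made deletion in both copies of the *Pkm* exon that only the *Pkm1* isoform uses, in all cells of the body; injected zygotes came from BDF1 mice, a hybrid of DBA/2 males and C57BL/6J females. Whether a library held 1 heart or several was not given in the sources used here. Columns carried no replicate numbers, so letters a, b and c follow column order within each genotype.

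WT libraries held 15597756 to 19875546 counts and KO libraries 15567624 to 18577404. Values are CPM, counts scaled to the library size by TMM, and 3 counts, taken as the floor of detection for counting error only, correspond to 0.153 to 0.197 CPM. *Pkm*, the targeted gene, had 1318 ± 41.1 CPM in WT against 542 ± 10.1 CPM in KO libraries (SD, n = 3 each). *Xist* was high in every KO library and the 4 Y-linked genes checked had 0 counts in every KO library and counts in every WT library, so a difference in sex cannot be told apart from the genotype for any gene below. In bulk tissue, fewer cells of a type and less RNA per cell cannot be told apart either. WT c stood somewhat apart from WT a and WT b, with a chi-square per degree of freedom of 3.76 and 3.24 against 1.56 between WT a and WT b, and no pair of libraries agreed within sampling noise.

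Promoter windows from RefSeq (GRCm38.p6, 250 bases before to 50 after a transcript start) matched 7 of the 10 genes; *Ctgf*, *Thbs1* and *Tead1* had no entry. The core letters that TEAD factors recognise, GGAATG or the reverse complement CATTCC, were present in a window of all 7. Among all 32851 windows 14.7% held them, as did 14.6% of the 10833 tested genes with a window. *Cyr61* and *Yap1* are shown whole up to the transcript start, since they had the largest and the smallest KO to WT difference among these 7 genes, and the letters are in capitals. *Cyr61* lies on the minus strand at chr3:145649986-145650235 and *Yap1* on the minus strand at chr9:8004597-8004846, both read in the direction of the gene.
*Cyr61*: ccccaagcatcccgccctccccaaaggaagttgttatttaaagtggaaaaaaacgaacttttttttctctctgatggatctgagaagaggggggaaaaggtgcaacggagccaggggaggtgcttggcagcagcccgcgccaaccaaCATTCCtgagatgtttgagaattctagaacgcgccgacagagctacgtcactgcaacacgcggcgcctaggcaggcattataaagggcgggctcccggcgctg
*Yap1*: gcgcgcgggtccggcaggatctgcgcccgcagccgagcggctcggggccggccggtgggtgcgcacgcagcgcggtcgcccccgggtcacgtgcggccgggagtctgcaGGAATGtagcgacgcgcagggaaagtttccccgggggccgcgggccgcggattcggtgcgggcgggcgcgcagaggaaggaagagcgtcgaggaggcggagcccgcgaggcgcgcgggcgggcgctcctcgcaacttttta

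The remaining matches are given with 30 bases each, read in the direction of the gene, to show where the letters sit. *Ankrd1* held 2, at chr19:36120037-36120066 and chr19:36119950-36119979 on the minus strand, and *Axl* 1, at chr7:25788949-25788978 on the minus strand. *Amotl2* held 1 at chr9:102717727-102717756 on the plus strand, and *Wwtr1* 1 at chr3:57576029-57576058 on the minus strand, which lay in the windows of both its starts. The match of *Lats2*, at chr14:57746102-57746131 on the minus strand, began at base 5 of the transcript from 1 of its 2 starts.
*Ankrd1*, farther from the start: gtcactgccaaaGGAATGaccctctcacat
*Ankrd1*, nearer to the start: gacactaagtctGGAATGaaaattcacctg
*Axl*: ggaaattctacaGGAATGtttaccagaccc
*Amotl2*: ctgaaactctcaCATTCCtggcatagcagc
*Wwtr1*: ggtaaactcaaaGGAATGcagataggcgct
*Lats2*: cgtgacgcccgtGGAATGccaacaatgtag

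The other motifs searched, on both strands and with no overlap with a TEAD match in these windows, were rarer among the 7 genes. CCAAT, the box that NFY binds, was in the window of 1 of 7, *Ankrd1*, and in 42.6% of the tested genes with a window. TGANTCA, an AP-1 site, and the CArG box of SRF were in 0 of 7, beside 6.13% and 1.65%. Of the 20 further YAP/TAZ targets with a window 6 (30%) held the TEAD letters, and of 18 immediate early genes 2 (11.1%). A match describes letters in a window and shows neither binding nor use.

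**Figure D1:**
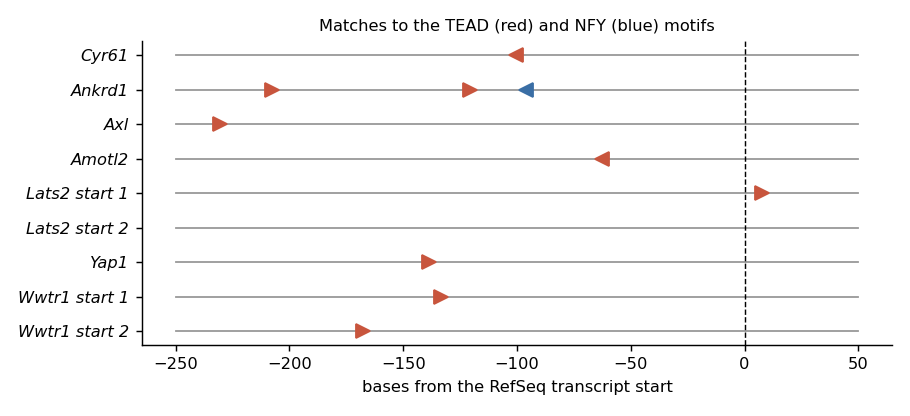
Position of motif matches in the promoter windows of 7 genes, in bases from the RefSeq transcript start (dashed line); red marks the TEAD letters, blue CCAAT, and the arrow points right for the strand of the gene and left for the opposite strand. The TEAD letters appear in 8 of 9 windows, between 233 bases before and 10 bases after the start.

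The secreted matricellular genes differed most between the genotypes. CTGF and CYR61 are members of the CCN family that bind integrins and growth factors in the matrix, and *Ctgf* is a common readout of YAP activity. *Ctgf* (chr10:24595442-24598683, plus strand; gene positions here and below are from GENCODE M21, GRCm38) was at 1189, 1192 and 1302 CPM in WT a, b and c, and at 128, 122 and 126 CPM in KO a, b and c. Even the lowest WT value was 9.27 times the highest in KO, and the highest value, in WT c, was also the main part of the spread in WT. The fitted log2 fold change was -3.29 (standard error 0.0351), which left 10.2% of the WT mean.

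*Cyr61* (chr3:145646976-145649981, minus strand) was at 212, 210 and 223 CPM in the WT libraries and at 37.0, 35.0 and 38.3 CPM in the KO libraries. Its groups were apart by a factor of 5.47 between the lowest WT and the highest KO library, with a log2 fold change of -2.54 (standard error 0.0446). *Thbs1* (chr2:118111876-118127133, plus strand) encodes thrombospondin-1, a matrix protein that can activate latent TGF-beta. It was at 245, 241 and 242 CPM in WT hearts and at 60.7, 65.2 and 61.9 CPM in KO hearts, again without overlap and with a narrow spread in either group. The log2 fold change was -1.96 (standard error 0.0386). By log2 fold change *Ctgf*, *Cyr61* and *Thbs1* ranked 9, 17 and 27 from the lowest of 13804 tested genes.

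The other targets differed far less. *Amotl2*, which encodes an angiomotin protein that holds YAP at junctions and the actin skeleton (chr9:102716672-102733418, plus strand), was at 212, 208 and 216 CPM in WT hearts and at 145, 137 and 146 CPM in KO hearts. KO libraries lay below all WT libraries, with a log2 fold change of -0.57 (standard error 0.0359). *Ankrd1* (chr19:36111961-36120099, minus strand) encodes CARP, a cardiac repeat protein of the sarcomere and nucleus. It was at 1413, 1426 and 1439 CPM in WT hearts and 1089, 1059 and 1068 CPM in KO hearts, groups again apart, with a log2 fold change of -0.41 (standard error 0.0232). *Axl*, a TAM-family receptor tyrosine kinase for GAS6 (chr7:25757273-25788705, minus strand), was at 88.1, 87.4 and 88.0 CPM in WT hearts and 71.9, 73.3 and 74.5 CPM in KO hearts. All KO values were below the WT values, with a log2 fold change of -0.26 (standard error 0.0428). *Lats2*, the kinase that opposes YAP (chr14:57689662-57758388, minus strand), was at 106, 107 and 108 CPM in WT hearts and 94.5, 95.1 and 93.4 CPM in KO hearts. Its KO mean was 88.1% of the WT mean, and the libraries did not overlap.

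Among the coactivators and their DNA-binding partner the differences were small. *Yap1* (chr9:7931999-8004596, minus strand) was at 120, 123 and 115 CPM in WT hearts and 117, 116 and 114 CPM in KO hearts. Its groups overlapped, the only such case among the 10 genes, with a log2 fold change of -0.04 (standard error 0.0389). *Wwtr1* (chr3:57455649-57575910, minus strand) was at 136, 136 and 132 CPM in WT hearts and at 114, 118 and 108 CPM in KO hearts. The KO libraries were all lower, KO c most of all, and the log2 fold change was -0.25 (standard error 0.0398). *Tead1* (chr7:112679318-112906807, plus strand) was at 545, 539 and 535 CPM in WT hearts and at 484, 488 and 492 CPM in KO hearts, groups that did not overlap, with a KO mean of 90.4% of the WT mean. These are transcript counts and say nothing of where the YAP protein was or whether it was phosphorylated.

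**Figure D2:**
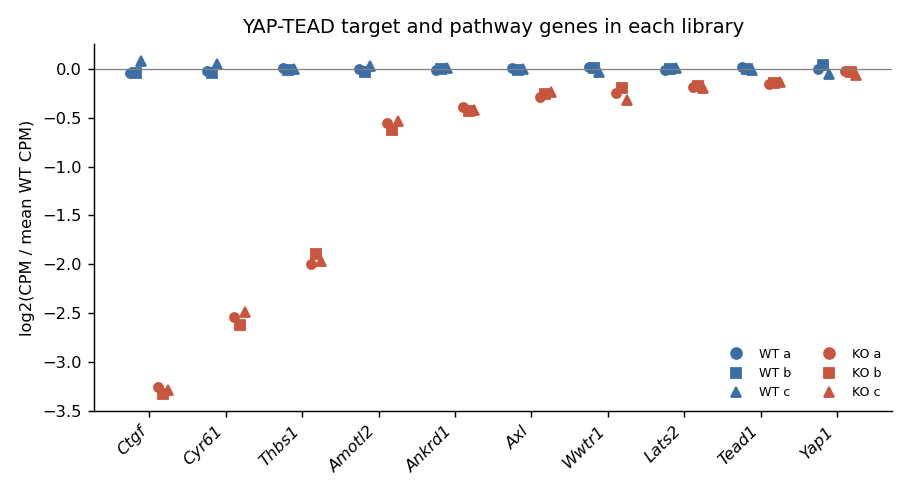
CPM of the 10 genes in each library, as log2 of the ratio to the WT mean, with WT libraries in blue, KO libraries in red and a symbol for each library. *Ctgf*, *Cyr61* and *Thbs1* sit far below the WT line in all 3 KO libraries, 6 genes sit slightly below it, and *Yap1* overlaps with WT.

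For 9 of the 10 genes every KO library was below every WT library, which held for 21.4% of all 13804 genes tested. The mean CPM in KO hearts was lower by at least 1.5-fold for 3 of the 10, *Ctgf*, *Cyr61* and *Thbs1*, and for 3.67% of all genes tested. The median log2 fold change was -0.34 over the 10 genes and 0.0017 over all genes. Because the genes were chosen from this contrast, nothing is read from these counts. Leaving out any 1 library kept the log2 fold change between -3.31 and -3.25 for *Ctgf*, between -2.57 and -2.51 for *Cyr61* and between -1.99 and -1.94 for *Thbs1*.

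Levels of different genes were compared as CPM per kb of merged exons (GENCODE M21, GRCm38). Merged exons join all annotated transcripts of a gene and may be longer than the transcripts present. The spread between libraries does not cover this, so the order of genes at close levels is tentative. In WT hearts *Ankrd1* was highest at 494 ± 4.57 CPM per kb, followed by *Ctgf* at 429 ± 22.4 and *Cyr61* at 107 ± 3.64 (SD, n = 3 each). *Thbs1* at 40.0 ± 0.337 and *Tead1* at 39.8 ± 0.397 CPM per kb did not differ beyond their spread (SD, n = 3 each). *Amotl2*, *Wwtr1*, *Axl*, *Lats2* and *Yap1* followed at 33.7, 28.2, 17.5, 15.4 and 12.9 CPM per kb, each step larger than the spread of the libraries. In KO hearts the order differed. *Ankrd1* stayed first at 371 ± 5.38 CPM per kb, *Ctgf* came after it at 43.8 ± 1.08 (SD, n = 3 each), with *Tead1* next at 36.0. *Wwtr1* at 23.7 ± 1.06 and *Amotl2* at 22.7 ± 0.797 CPM per kb overlapped (SD, n = 3 each). *Cyr61* moved from place 3 to place 6 at 18.2 CPM per kb and *Thbs1* from place 4 to place 10 at 10.3, below *Axl*, *Lats2* and *Yap1* at 14.6, 13.5 and 12.5 CPM per kb.

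**Figure D3:**
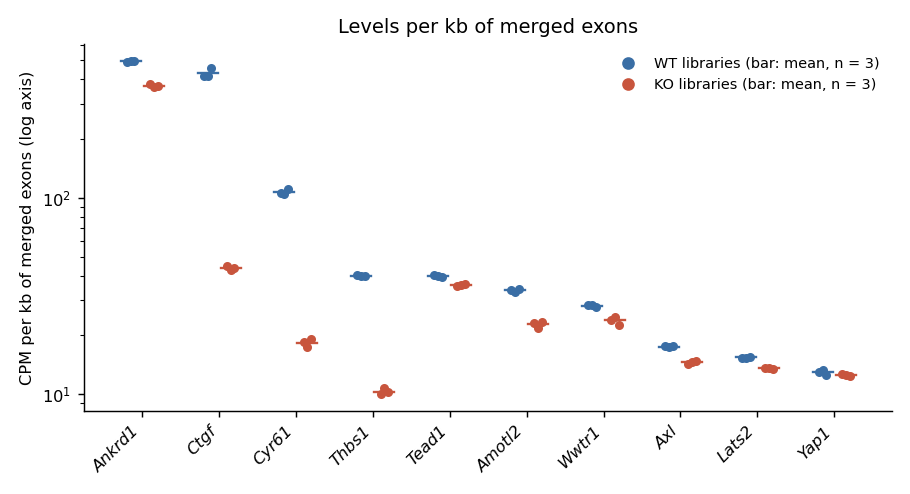
CPM per kb of merged exons on a log axis for the 10 genes, ordered by their WT mean; points are libraries and bars are means of 3 libraries. *Ankrd1* is highest in both genotypes, *Ctgf* comes next in both, and *Cyr61* and *Thbs1* move to lower places in KO.

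Family relatives of these genes were looked at next, as a list of 18 genes, 16 of them with counts; *Wisp2* and *Ankrd2* were not analysed here. Of the 16, 6 fell and 3 rose in KO hearts at an adjusted p under 0.05. Of all genes tested 15.7% were lower and 14.6% higher. By at least 1.5-fold 0 of the 16 fell, beside 3.67% of all genes tested. In the CCN family, *Nov* (CCN3) fell to 8.69 ± 1.21 CPM in KO from 12.4 ± 0.510 CPM in WT hearts (SD, n = 3 each), or a change on the log2 scale of -0.51 (edgeR quasi-likelihood test, Benjamini-Hochberg adjusted p = 6.07e-04). *Wisp1* (CCN4), at 53.7 and 48.2 CPM, had overlapping groups although it passed the threshold (log2 fold change -0.16, edgeR adjusted p = 0.0321), and it did not pass without KO a, KO c or WT b, with adjusted p of 0.135, 0.142 and 0.206. *Wisp3* was near the floor, at 0.861 CPM in WT hearts and 1.33 CPM in KO hearts, and did not pass. The log2 fold changes of these relatives thus ran from -0.51 to 0.62, beside -3.29 and -2.54 for *Ctgf* and *Cyr61*, which were selected on that difference.

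The other thrombospondins differed less between the genotypes than *Thbs1*, which was selected on its difference. *Thbs4* rose from 44.7 ± 3.28 to 53.4 ± 2.50 CPM (SD, n = 3 each; log2 fold change 0.26, edgeR adjusted p = 0.00122), while *Thbs2* stood at 59.0 CPM in WT hearts and 63.3 CPM in KO hearts (edgeR adjusted p = 0.125). *Thbs3*, at 16.6 and 14.3 CPM, lay at the threshold (edgeR adjusted p = 0.0495) and passed without WT a but with no other library left out, where the highest adjusted p was 0.196. *Comp* stood at 2.03 and 1.93 CPM. *Ankrd23*, a muscle ankyrin repeat gene like *Ankrd1*, fell by 0.25 on the log2 scale (edgeR adjusted p = 0.00171). Of the receptors related to *Axl*, *Mertk* fell from 19.4 to 16.2 CPM (edgeR adjusted p = 0.0156; 0.0749 without KO b) and *Tyro3* was at 9.69 and 8.71 CPM without a call.

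*Lats1*, the sister kinase of *Lats2*, rose from 62.0 ± 2.46 to 70.7 ± 3.31 CPM (SD, n = 3 each; log2 fold change 0.19, edgeR adjusted p = 0.00495). The signs of *Lats1* and *Lats2* were thus opposite, though each difference was under 1.5-fold. Of the angiomotins related to *Amotl2*, *Amotl1* fell by 0.13 on the log2 scale, from 238 to 217 CPM (edgeR adjusted p = 0.00248), and the X-linked *Amot* was at 14.5 and 15.3 CPM without a call. *Tead4* rose from 8.49 ± 1.10 to 11.3 ± 0.807 CPM (SD, n = 3 each; edgeR adjusted p = 0.00656), a call that did not hold without KO a (adjusted p = 0.0541). *Tead2* stood at 53.9 and 54.9 CPM and *Tead3* at 35.1 and 32.7 CPM, both short of the threshold.

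**Figure D4:**
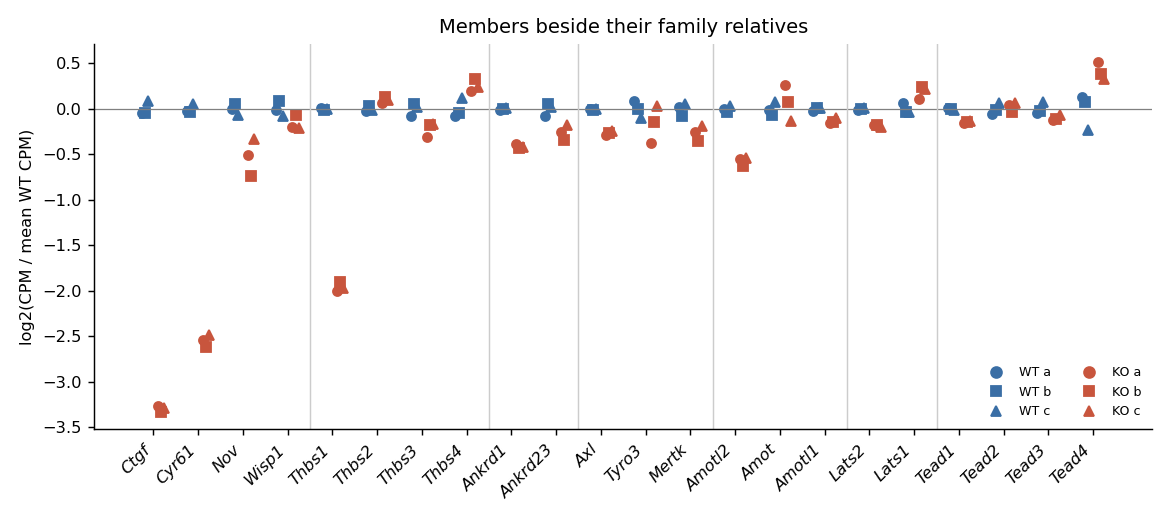
CPM of the described genes and their family relatives in each library, as log2 of the ratio to the WT mean, with grey lines between families and symbols as in the plot of the 10 genes. *Ctgf*, *Cyr61* and *Thbs1* stand apart from *Nov*, *Wisp1* and *Thbs2* to *Thbs4*, while *Lats1* and *Tead4* lie above WT; *Wisp3* and *Comp*, under 3 CPM, are not drawn.

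Upstream in the pathway, 32 genes of Hippo kinases, scaffolds and regulators were tested, of which 7 fell, 5 rose and 20 did not pass, and the median log2 fold change was -0.03. The shares of 21.9% and 15.6% were near the 15.7% and 14.6% of all genes. Only 3 genes of the list rose without KO c. The core MST kinases *Stk4* and *Stk3* were at 44.1 and 35.9 CPM in WT and 44.6 and 35.1 CPM in KO hearts. Their log2 fold changes were 0.02 and -0.03 (standard errors 0.0544 and 0.0664). Their scaffold *Sav1*, at 52.8 and 53.4 CPM, and the merlin gene *Nf2*, at 142 and 146 CPM, did not pass either. Of the MOB cofactors of the LATS kinases, *Mob1a* rose from 20.7 to 24.7 CPM (edgeR adjusted p = 0.0151), though not without KO a (0.130) or KO c (0.0580), and *Mob1b* was at 76.9 ± 10.1 and 76.0 ± 2.63 CPM (SD, n = 3 each). *Mob1b* passed only without WT c (log2 fold change -0.12, edgeR adjusted p = 0.0421).

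The smallest adjusted p in that list was that of *Frmd6*, a FERM-domain gene placed upstream of the kinases, which fell to 59.0 ± 1.13 CPM in KO from 84.4 ± 2.63 CPM in WT hearts (SD, n = 3 each). Its log2 fold change was -0.52 (standard error 0.0460, edgeR adjusted p = 1.45e-09). *Stk38l*, an NDR kinase related to LATS, fell from 57.2 to 46.5 CPM, and *Rassf1*, which encodes a partner of the MST kinases, fell from 29.1 to 22.6 CPM (edgeR adjusted p = 1.05e-04 and 2.63e-04). *Tnik* fell from 88.8 to 76.8 CPM, and *Strn*, a striatin of the phosphatase complex that counters MST, rose from 170 to 189 CPM (edgeR adjusted p = 0.00106 and 0.00104). Among 8 TEAD factors and nuclear cofactors with counts, 1 fell and 1 rose, *Vgll3* and *Tead4* (12.5% each, near the 15.7% and 14.6% of all genes). *Vgll1* and *Vgll2* were not analysed here. *Vgll3*, whose product competes with YAP for TEAD, fell to 3.55 ± 0.294 CPM in KO from 5.45 ± 0.343 CPM in WT hearts (SD, n = 3 each; edgeR adjusted p = 0.00270), and *Vgll4* stood at 24.0 and 25.4 CPM without a call. Without WT b, 3 genes of this list fell, and without KO a none rose.

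A wider list of 29 further YAP/TAZ target genes moved in both directions. Of the 29, 9 fell (31.0%), 6 rose (20.7%) and 14 did not pass, beside 15.7% lower and 14.6% higher among all genes tested. The median log2 fold change of the list was -0.04, and *Foxf2* was not analysed here. Only 3 rose without KO c, and likewise without WT b. *Sgk1*, a serum- and glucocorticoid-induced kinase, fell to 54.6 ± 4.01 CPM in KO from 89.4 ± 1.70 CPM in WT hearts (SD, n = 3 each), or a change on the log2 scale of -0.71 (edgeR adjusted p = 1.62e-11).

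*Tgfb2* and *Dlc1*, a TGF-beta ligand and a GTPase-activating protein, fell by 0.32 and 0.16 on the log2 scale (edgeR adjusted p = 3.73e-05 and 8.03e-05). Against them, *Slit2*, a secreted guidance cue, rose from 88.3 to 105 CPM, and *Ajuba*, a LIM protein that binds LATS, rose from 31.8 to 39.6 CPM (edgeR adjusted p = 4.78e-05 and 2.86e-04). Of 6 genes with counts that were reported as YAP targets in heart work, 1 fell (16.7%) and 0 rose. It was the anaphase activator *Cdc20*, which fell from 56.3 to 49.2 CPM (edgeR adjusted p = 0.00542), and *Sox2* was not analysed here. Among 16 cytoskeletal targets of the tension-sensitive MRTF-SRF pathway, 6 fell (37.5%) and 3 rose (18.8%), with a median log2 fold change of -0.05. None of the 16 fell by at least 1.5-fold. Of all genes tested, 15.7% were lower, 14.6% higher and 3.67% lower by at least 1.5-fold. *Fhl2* fell by 0.36 and *Tpm1* by 0.31 on the log2 scale, while *Myl9* rose by 0.34 (edgeR adjusted p = 3.69e-11, 7.53e-08 and 8.81e-10). *Zyx*, *Tagln2* and the X-linked *Fhl1* fell by 0.20, 0.17 and 0.14.

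**Figure D5:**
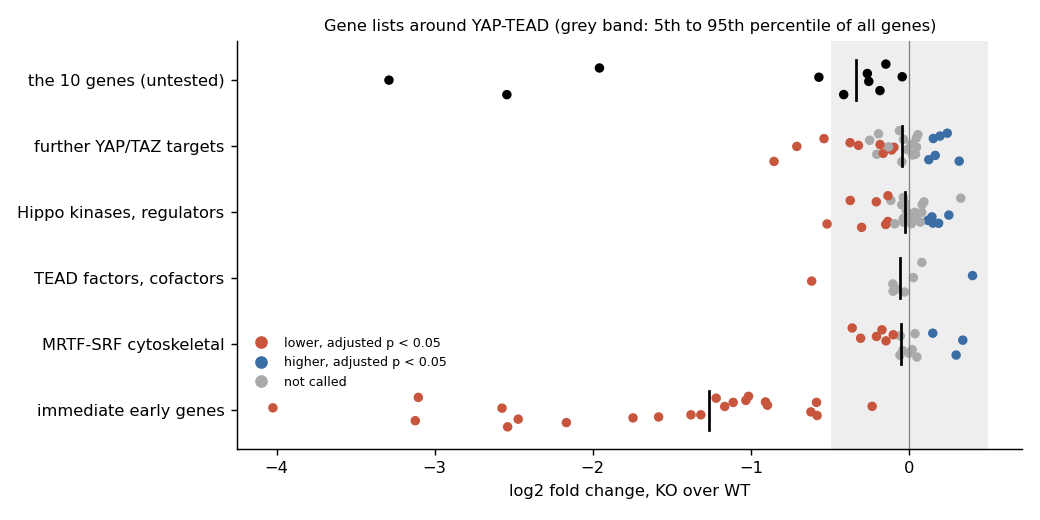
Log2 fold change of KO over WT for the 10 genes and 5 gene lists, each point a gene and each black bar the median of its row; red and blue points passed the threshold as lower and higher, grey points did not, and the 10 genes in black were not tested. The grey band runs from -0.48 to 0.49, the 5th to 95th percentile of all genes; most genes of the YAP/TAZ, Hippo, TEAD and MRTF-SRF lists lie inside it and most immediate early genes lie below it.

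Immediate early genes, which are induced within minutes by serum, stretch or tissue handling, were lower in KO hearts, as were the 3 matricellular genes. *Ctgf* and *Cyr61* are themselves known to respond quickly to serum. Of 22 such genes in the table, none of them among the 10, all 22 fell in KO hearts and 20 of them by at least 1.5-fold. Of all genes tested 15.7% were lower and 3.67% fell by at least 1.5-fold. The median log2 fold change of the 22 genes was -1.27, and *Fosl1* was not analysed here. Their summed level was 1626 to 1748 CPM in the WT libraries and 636 to 643 CPM in the KO libraries, and no gene of the list was at 0 in a library. *Fos*, the AP-1 subunit, was at 49.2, 49.1 and 50.5 CPM in WT hearts and 2.12, 4.04 and 3.11 CPM in KO hearts. *Atf3*, *Egr1*, *Btg2*, *Nr4a1* and *Klf6* had log2 fold changes of -3.12, -2.57, -2.54, -2.47 and -1.11 (largest edgeR adjusted p = 8.61e-19, for *Klf6*). The list was chosen with earlier results of these libraries known, so its counts and p-values describe the difference and do not test it. The part of these genes, or of what moved them, in the values of *Ctgf*, *Cyr61* and *Thbs1* was not tested.

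The genes with the most similar pattern were sought among the 9494 genes that averaged 10 CPM or more, by the distance between their log2 CPM relative to the WT mean over the 6 libraries. Such a distance mostly follows the KO to WT difference, on which *Ctgf* and *Cyr61* were selected. The log2 fold change was -3.29 for both *Ctgf* and *Nr4a3*, and -2.54 for both *Cyr61* and *Btg2*. The neighbours are therefore genes with a like difference, and nothing further is read from them. For *Ctgf* the nearest was *Nr4a3* (distance 0.107), at 35.4 ± 1.01 CPM in WT hearts against 3.61 ± 0.0673 CPM in KO hearts (SD, n = 3 each), then *Atf3* (0.594), *Egr1* (1.25), *Cyr61* (1.29) and *Btg2* (1.31). For *Cyr61* the nearest were *Btg2* (0.131), *Egr1* (0.165), *Nr4a1* (0.169), *Adamts1* (0.464) and *Irs2* (1.02). *Adamts1*, a secreted metalloprotease, was at 475 ± 5.03 CPM in WT hearts against 96.1 ± 4.79 CPM in KO hearts (SD, n = 3 each). Of the 5 nearest genes in either case, 3 are on the list of immediate early genes, and *Cyr61* is the only one of the 10 genes in either set of neighbours.

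Markers of the cell types in the samples moved less than the matricellular genes. Those genes were selected on their difference, so nothing is read from the comparison. Marker log2 fold changes ran from -0.78 (*C1qa*, immune) to 1.10 (*Myl4*, atrial). The summed levels below hide such single markers. *Ttn*, at 78884 CPM in WT hearts, made up most of the cardiomyocyte sum, and *Myh6* fell most in that list, to 72.9% of its WT mean. The tissue label was checked on cardiomyocyte and ventricular markers, which were abundant, with summed levels from 112023 to 113938 and from 7166 to 7830 CPM in WT and from 104545 to 105408 and from 6596 to 6847 CPM in KO hearts; 5 of 6 and 2 of 3 fell, and *Actc1* rose. Of 8 fibroblast markers 4 fell (summed 3946 to 3992 CPM in WT, 3677 to 3746 CPM in KO), and of 6 endothelial markers 3 fell (1066 to 1071 CPM, 993 to 1008 CPM). Of 7 smooth muscle and pericyte markers 3 fell and 1 rose (940 to 981 CPM, 929 to 933 CPM), and of 4 immune markers 1 fell (23.7 to 25.6 CPM, 19.5 to 26.8 CPM). Of 5 atrial markers with counts 3 rose (586 to 594 CPM, 999 to 1022 CPM), of 5 epicardial markers 2 rose (85.7 to 90.5 CPM, 96.0 to 101 CPM), and of 2 erythroid markers 1 rose (27.2 to 28.0 CPM, 31.0 to 37.5 CPM). Beside these counts, 15.7% of all genes tested were lower and 14.6% higher at an adjusted p under 0.05. No marker was at 0 in a library, and *Sln*, *Hbb-bs* and *Hba-a1* were not analysed here. Ribosomal RNA counts (*Rn45s*) made up 2.21% to 2.48% of the WT and 2.70% to 2.79% of the KO libraries. The part of these marker differences in the values of the 10 genes was not tested.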

How the data were processed

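Total RNA depleted of ribosomal RNA was sequenced in 3 WT and 3 KO libraries from hearts at E18.5. Per the labels and the study's methods, the authors trimmed reads (cutadapt 1.18), used HISAT2 for alignment to mm10 and StringTie for transcript assembly; the program that counted reads and its strand setting are not given in the sources used here, so reads of overlapping or antisense genes could not be told apart. The deposited values are raw counts for 13809 gene symbols, each with at least 59 counts over the 6 libraries. They also deposited the log2 fold changes and p-values of an edgeR comparison of their own, with mean abundance and false discovery rates, which were not used.

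The analysis used edgeR 4.0.16 (R 4.3.3): filterByExpr (13804 genes kept), TMM scaling, and the two-sided quasi-likelihood test of genotype, without covariates, adjusted by Benjamini-Hochberg over all genes tested (threshold 0.05). The standard error given is the absolute log2 fold change over the square root of the quasi-likelihood F statistic. For the 10 genes no p-value is read from it. Overlap and 1.5-fold counts used mean or single-library CPM. Alternatives were RLE factors, DESeq2 1.42.0, voom of limma 3.58.1, no filter, at least 10 counts in every library, TMM without *Rn45s*, and each library left out. The fit was tested on simulated data. Promoters came from RefSeq and positions and exon lengths from GENCODE M21. Python 3.11.15 and matplotlib 3.10.9 made the figures.

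The genes, lists and tests were chosen with earlier results of these data known. Named from each wider list were up to 6 genes past the threshold with the smallest adjusted p, plus core Hippo and TEAD genes and all family relatives whatever their values. Lists of sex-linked genes and of cell type markers are described as wholes, with only a few of their genes named. Protein sequences were not used here. A named gene of the further YAP/TAZ targets is counted in its list but not reported here.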

Additional observations from a re-analysis of the deposited data

How the results depend on the processing

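No paired analysis was possible because the count columns carry no replicate numbers. The log2 fold change of each of the 10 genes moved by less than the spread between replicates in all 12 alternatives. Leaving out a library can hardly move a group mean by more than that spread. The other settings changed only the scaling, the filter or the tool, so nothing further is read from this. Over the fits that each lacked 1 library, the count of lower genes ran from 1704 to 2306 and of higher genes from 1479 to 2013, and DESeq2 gave 1639 and 1362, against 2168 and 2011. DESeq2 called 3 lower family relatives in place of 6, and 3 higher further YAP/TAZ targets in place of 6. With 1 library left out, the higher further YAP/TAZ targets numbered 3 to 5, the higher Hippo regulators 3 to 6, and TEAD factors and cofactors 0 to 1 higher and 1 to 3 lower. Of 49 other genes checked, 38 kept direction and side of the threshold throughout. The sign turned, without a call in the other direction, with 1 library left out for *Amot* (log2 fold change -0.0224 to 0.182), *Comp* (-0.332 to 0.0521), *Mob1b* (-0.117 to 0.0618), *Stk3* (-0.107 to 0.0127), *Stk4* (-0.0058 to 0.0491) and *Tead2* (-1.36e-04 to 0.0602). *Mertk*, *Thbs3* and *Wisp1* also lost their calls in DESeq2 (adjusted p of 0.0529, 0.145 and 0.0820), and *Thbs3* with at least 10 counts in every library (0.0544). The cause was not tested. At these depths 3 counts limit detection to 0.153 to 0.197 CPM, and *Wisp3* was the named gene nearest to that limit.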
